A study of Mus musculus with 3 samples.

Results

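The transcription factor GLI3 was mapped in mouse forelimb buds, and the binding regions described here are those near 8 genes that are expressed in the ectoderm covering the limb: Sp6, Sp8, Sp9, En1, Wnt7a, Trp63, Tfap2a and Grhl2. A region, or peak, was assigned to a gene when its summit lay within 100 kb of an annotated transcription start site (TSS) of that gene in mm10. The rule found 38 of the 17149 listed peaks. Of these, 15 had a false discovery rate (FDR) under 0.05 and are called peaks below, and the other 23 are listed at a higher FDR.

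The method was ChIP-seq, in which chromatin is immunoprecipitated, here through a FLAG tag on the endogenous GLI3 protein, and its DNA is sequenced. All 3 libraries came, with no treatment named, from E10.5 forelimb buds (32 to 35 somites) of a mixed strain background, namely 2 ChIP replicates, each from 2 litters, and 1 input of chromatin that was not immunoprecipitated. The labels give the genotype as wild type, while the design text names FLAG-tagged Gli3. The data are 1 peak list treated as a joint call over both replicates, so no peak has a replicate error, no test between samples was possible, and the read total of each library is not known here beyond a minimum in the study's methods. Whole buds were dissociated with Liberase before fixation and the layers were not separated, so a site bound in ectoderm and a site bound in mesenchyme cannot be told apart. The list holds no expression values, and the ectodermal expression of the 8 genes was taken as background knowledge that could not be checked in these data.

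GLI3 is a zinc finger protein that acts mainly as a repressor of Hedgehog (HH) target genes when the pathway is inactive, and in the limb it is best known for its role in the mesenchyme. The limb ectoderm is a separate germ layer. Its apical ectodermal ridge secretes FGFs that maintain outgrowth, its dorsal face secretes WNT7A and its ventral face expresses EN1. Sp6, Sp8 and Sp9 encode related zinc finger factors needed for ridge formation and Fgf8 expression. En1 encodes a homeodomain repressor that keeps Wnt7a out of the ventral ectoderm, and WNT7A from the dorsal ectoderm induces Lmx1b in the mesenchyme beneath it. Trp63, Tfap2a and Grhl2 encode factors of epithelial identity, of which TFAP2A also acts in the neural crest and in other tissues.

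The sequences at some of the summits show DNA on which the results below turn. The first set is the 101 bp centred on the summit of the strongest peak within 1 kb of a start of En1, Sp8 and Tfap2a. That of Sp9 is not shown, and the 3 windows do not stand for all 4 genes. All are on the plus strand of mm10 with each CpG in capitals. The list does not say whether its positions count from 0 or 1, so each window may be off by 1 base.
En1 promoter, chr1:120602237-120602337: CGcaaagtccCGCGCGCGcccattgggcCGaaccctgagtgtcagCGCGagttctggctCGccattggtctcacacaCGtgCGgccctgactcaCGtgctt
Sp8 first intron, chr12:118847047-118847147: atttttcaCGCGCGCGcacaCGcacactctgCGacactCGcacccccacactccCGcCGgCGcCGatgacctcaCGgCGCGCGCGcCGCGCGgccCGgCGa
Tfap2a internal promoter, chr13:40730887-40730987: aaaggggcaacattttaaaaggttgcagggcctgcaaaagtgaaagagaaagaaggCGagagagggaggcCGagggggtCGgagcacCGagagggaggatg
The Sp8 window held 21 CpGs and the En1 window 12, at a GC content of 74.3% and 65.3%. The Tfap2a window held 4 CpGs at a GC content of 55.4%. The order differed over the 250 bp to either side of the same summits. There the GC content was 64.9% at Tfap2a, 58.1% at En1 and 57.7% at Sp8. The ratio of observed to expected CpGs there was 1.048 at Tfap2a, 1.002 at Sp8 and 0.781 at En1.

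The second set is every match to the GLI consensus around the summits of the 38 peaks. The search used GACCACCCA with at most 1 mismatch, on both strands, in the 250 bp to either side of each summit. The matched word is in capitals within 61 bp of the plus strand of mm10.
En1, rank 3778, chr1:120659608-120659668: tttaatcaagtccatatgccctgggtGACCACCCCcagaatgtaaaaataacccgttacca
Grhl2, rank 2185, chr15:37136143-37136203: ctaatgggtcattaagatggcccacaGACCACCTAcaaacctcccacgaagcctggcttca
Grhl2, rank 13236, chr15:37135266-37135326: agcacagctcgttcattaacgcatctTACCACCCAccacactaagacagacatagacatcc
Sp9, rank 16320, chr2:73279089-73279149: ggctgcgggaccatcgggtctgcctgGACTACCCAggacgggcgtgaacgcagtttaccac
Each of the 4 differs from the consensus at 1 position. Of the 4, only the En1 word lay close to its summit, at 29 bp. The others lay 176 bp (Grhl2, rank 2185), 226 bp (Grhl2, rank 13236) and 228 bp (Sp9) away. A match describes the letters only and does not show that GLI3 contacts the word.

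GLI3 peaks were concentrated at 4 of the 8 genes. Tfap2a had 13 listed peaks within 100 kb, Sp9 had 9, Sp8 had 7 and En1 had 5, together 34 of the 38. Grhl2 had 2 and Sp6 and Wnt7a had 1 each, none of them within 10 kb of the gene's own start, and Trp63 had 0. A listed peak was therefore found at 7 of the 8 genes, against 71.9% of the 21938 protein-coding genes, and a called peak at 6 of the 8, against 53.9%. Among the 38 peaks, 39.5% were called (95% Wilson interval 25.6 to 55.3), and among all listed peaks 42.5%. The share of peaks called thus lay near that of the whole list, and 8 genes allow only a coarse reading of the shares of genes. All intervals given here cover counting error only, and the peaks of a gene share their locus and are not independent of each other.

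**Figure D1:**
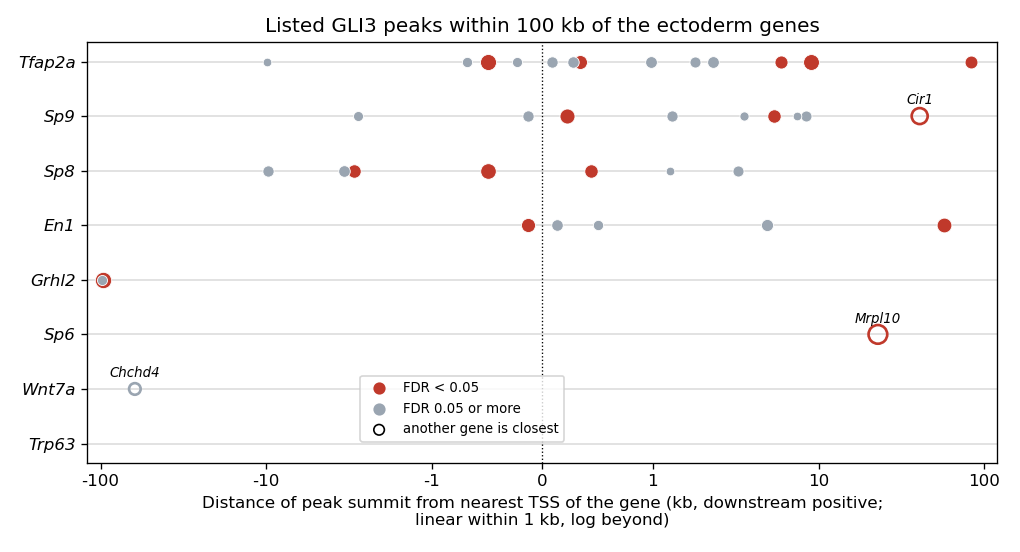
Each listed peak within 100 kb of the 8 genes, placed by the distance of its summit from the nearest TSS of the gene in kb (downstream positive, linear within 1 kb and logarithmic beyond), with 1 row per gene. Red points have an FDR under 0.05, grey points a higher FDR, point size grows with log2 fold enrichment, and open points have another, named gene as their closest; peaks crowd around the starts of Tfap2a, Sp9, Sp8 and En1, and the row of Trp63 is empty.

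Distance to a TSS is what chose the peaks and is given as a description. Within 10 kb were 31 of the 38 summits, all at Tfap2a, Sp9, Sp8 and En1, and 14 were within 1 kb. The peaks of Grhl2, Sp6 and Wnt7a lay between 22.8 and 97.5 kb away. A member of the list was the closest protein-coding gene for 35 peaks, and for the other 3 it was Mrpl10, Cir1 or Chchd4. By the position of the summit, 13 peaks were intronic, 11 intergenic, 6 in a 5′ UTR, 4 in a 3′ UTR, 2 in a coding exon and 2 in an exon of a transcript with no coding sequence. Enrichment was moderate. The log2 fold enrichment over input, taken at its highest within a peak, had a median of 2.17 over the 38 peaks (range 1.81 to 3.47) and of 2.23 over all listed peaks. Only 1 of the 38 ranked among the first 1000 peaks of the list, 6 had an FDR of 0 and 4 an FDR of 1.

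Among the ridge factors, Sp8 (chr12, plus strand) carried 7 listed peaks, all within 10 kb and spread over 14220 bp from upstream of the gene to its 3′ UTR. The strongest, at chr12:118846950-118847399 (rank 2842, FDR 0, log2 fold enrichment 2.82), is the CpG-dense site printed above. It lay in the first intron, 489 bp upstream of the second annotated start. A further called peak lay 436 bp downstream of that start (rank 5767, log2 fold enrichment 2.44, FDR 0.0208). The third called peak was intergenic, 2.94 kb upstream of the first start (rank 5730, 2.45 on the log2 scale, FDR 0.0208). All 3 called peaks were thus at or just upstream of the gene. The 4 other peaks had log2 fold enrichments between 1.82 and 2.17 and included 1 in the coding sequence (rank 16291, FDR 1). None of the 7 held a GLI match.

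Sp9 (chr2, plus strand), its close relative, had 9 listed peaks, 8 of them within 10 kb. The strongest of these 8 was in the first intron, 221 bp from a start (rank 3463, log2 fold enrichment 2.72, FDR 0.00113). A called peak in the 3′ UTR lay 5.36 kb downstream (rank 5762, 2.44 on the log2 scale, FDR 0.0208). The CpG-rich sequence 128 bp upstream of the first start held a listed peak that was not called (rank 10244, log2 fold enrichment 2.13, FDR 0.233). The highest-ranked peak assigned to Sp9 was not at Sp9. It lay 40.7 kb downstream (rank 2467, FDR 0, log2 fold enrichment 2.90), 1 bp from a start of Cir1 and in the 5′ UTR of Scrn3, a pair of genes with neighbouring starts. Sp9 and Sp8 therefore each had a called promoter peak in an intron.

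Sp6 (chr11, plus strand) had no peak at its own starts, unlike its relatives. Its single assigned peak was the strongest of all 38 (rank 801, chr11:97041350-97041999, FDR 0, log2 fold enrichment 3.47). That summit lay 28 bp from a start of Mrpl10, which encodes a mitochondrial ribosomal protein, and 22.8 kb from the nearest Sp6 start. Sp6 has 9 other protein-coding genes with a start within 100 kb, the most of the 8 genes. The next listed peak lay 131.8 kb from Sp6, in Tbkbp1 (rank 13079, FDR 0.461).

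Of the dorsal-ventral pair, En1 (chr1, plus strand) had 5 listed peaks and Wnt7a (chr6, minus strand) 1. At En1, a called peak sat 131 bp upstream of the TSS, on the CpG-rich sequence printed above (rank 4752, chr1:120602100-120602449, log2 fold enrichment 2.55, FDR 0.00706). Weaker listed peaks followed in the 5′ UTR, 134 bp and 504 bp downstream (FDR 0.148 and 0.461), and in the 3′ UTR 4.9 kb downstream (FDR 0.0799). The highest-ranked En1 peak was distal. It lay 57.2 kb downstream at chr1:120659500-120659949 (rank 3778, log2 fold enrichment 2.67, FDR 0.00228), in an intron of the noncoding gene 2610027F03Rik, and En1 was its closest protein-coding gene. It is the peak whose GLI match lies 29 bp from the summit, and the sequence within 250 bp of the summit has a GC content of 44.5%.

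The dorsal ligand gene Wnt7a had no listed peak nearer than 62.1 kb. That peak (rank 9364, chr6:91473300-91473449, log2 fold enrichment 2.17, FDR 0.148) lay in the 5′ UTR of Chchd4 and was not called. The nearest called peak was 466.6 kb away, 96 bp from a start of Ccdc174 (rank 3044, FDR 0). The 5′ end of Wnt7a is the most GC-rich of the 8 genes, at 68.3% over the 500 bp to either side of the start. It is CpG-rich, defined as a GC content of at least 50% and an observed to expected CpG ratio above 0.6.

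Tfap2a (chr13, minus strand) had the most peaks of the 8 genes, with 13 listed and 5 called. Of the 13, 12 lay within 10 kb of one of its 9 distinct starts, across 28310 bp. The strongest, at chr13:40730550-40731549 (rank 2444, FDR 0, log2 fold enrichment 2.90), was 1000 bp long, the longest of the 38. Its summit was 494 bp upstream of an internal start, in an intron of longer transcripts. A called peak 341 bp downstream of the same start lay in the 5′ UTR (rank 4865, log2 fold enrichment 2.53, FDR 0.00706). At the outermost 5′ end of the gene, 89 bp from its start, the peak was weaker and not called (rank 10038, log2 fold enrichment 2.14, FDR 0.233). The called promoter peaks of Tfap2a were thus at an internal start.

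Further along Tfap2a, 2 called peaks were intronic. Rank 6384 (log2 fold enrichment 2.39, FDR 0.0211) lay 5.91 kb from the nearest Tfap2a start. Its summit was 78 bp from a start of the antisense gene Gm47061. Rank 2610 (log2 fold enrichment 2.87, FDR 0) lay 9.04 kb from the nearest Tfap2a start. The fifth called peak was distal, 82.7 kb downstream (rank 6650, log2 fold enrichment 2.36, FDR 0.0374). Its closest start over genes of every type was 1558 bp away, at Gm47041. Beyond these 13, the next listed peak was 262.7 kb away (rank 8611, at Pak1ip1). The 8 uncalled peaks had log2 fold enrichments of 1.81 to 2.19, the lowest of them 9.84 kb upstream of the gene.

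**Figure D2:**
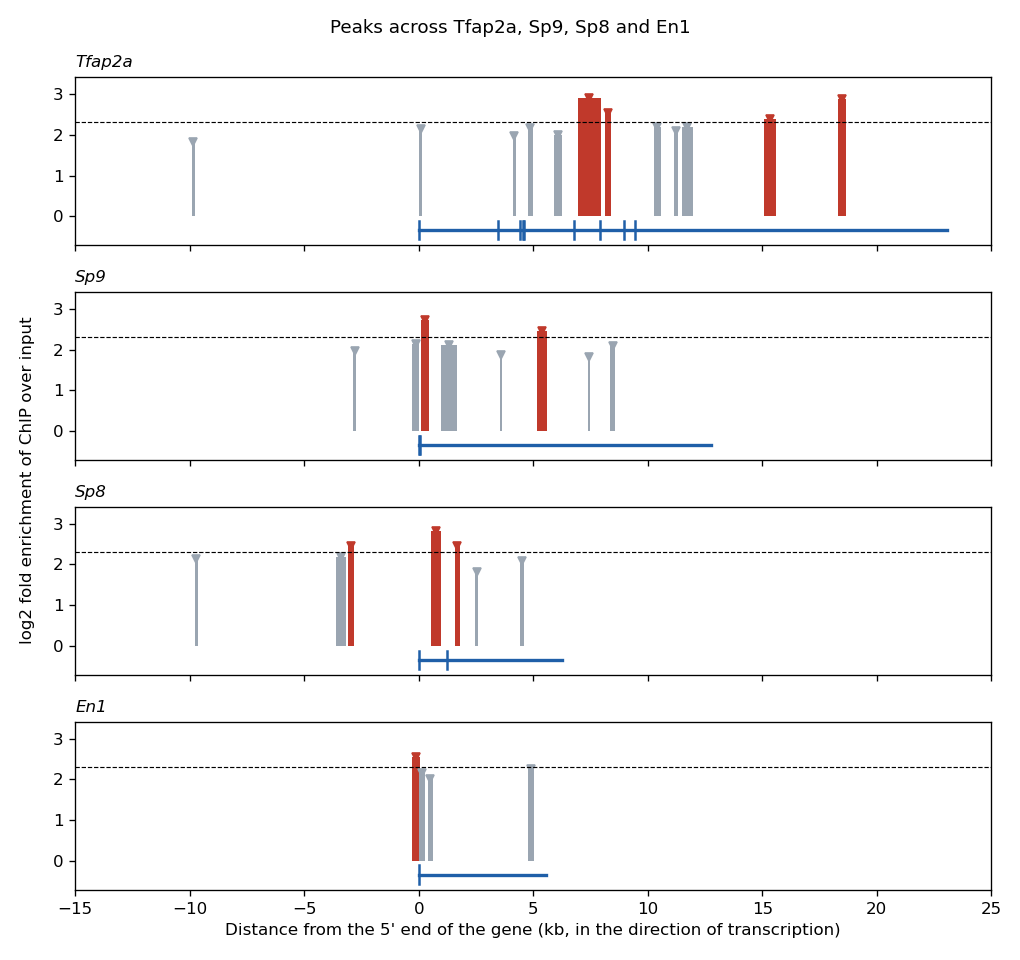
Log2 fold enrichment of ChIP over input (vertical axis) for the listed peaks at Tfap2a, Sp9, Sp8 and En1 against distance from the 5′ end of the gene in kb in the direction of transcription. Bars span the peak length and are centred on the summit, red bars have an FDR under 0.05, the dashed line is the lowest enrichment of any called peak in the list (2.31), the blue line is the gene and its ticks the annotated starts; most called peaks in this window lie on promoters or inside the genes, 1 at Sp8 lies 2.94 kb upstream, and the distal called peaks of En1, Sp9 and Tfap2a fall outside the window.

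The remaining epithelial genes had no listed peak within 10 kb. Grhl2 (chr15, plus strand), whose factor maintains epithelial junctions, had 0 listed peaks within 10 kb. Its 2 peaks lay side by side 97.0 kb and 97.5 kb upstream. The stronger, at chr15:37135650-37136299, had an FDR of 0 and a log2 fold enrichment of 2.97 (rank 2185), and Grhl2 was its closest protein-coding gene in GENCODE. RefSeq places the start of the lncRNA gene Gm34820 50 bp from that summit and the start of Gm41301 219 bp from the other (rank 13236, FDR 0.470, log2 fold enrichment 1.98). Each has a GLI match within 250 bp of its summit, as printed above, and only that of rank 2185 lies inside the peak itself. They lie just inside the 100 kb limit, and the next listed peak was 179.0 kb away (rank 12752, FDR 0.461).

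Trp63 (chr16, plus strand), a regulator of stratified epithelium that has a long and a short, internally started form, had no listed peak within 100 kb of either kind of start. The closest listed peak was 218.2 kb upstream (rank 11630, log2 fold enrichment 2.06, FDR 0.438), with Tprg as the nearest protein-coding gene. The closest called peak was 239.8 kb away, in an intron of P3h2 (rank 5229, log2 fold enrichment 2.50, FDR 0.0114). At the threshold of this list binding near Trp63 was not detectable, which does not show that it was absent.

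Peak number near the 4 occupied genes was set against all protein-coding genes. Within 10 kb of a start, Tfap2a had 12 listed peaks, Sp9 8, Sp8 7 and En1 4. At least as many were found at 0.105%, 0.392%, 0.611% and 2.89% of protein-coding genes. At least 5 listed peaks within 10 kb were present at 3 of the 8 genes (Tfap2a, Sp9 and Sp8) and at 1.55% of all genes. Such dense loci were also found at 8 of 14 genes of limb mesenchyme, 6 of 30 other genes of limb ectoderm and 1 of 3 HH feedback genes, the lists described further on. The other 4 genes had 0 within 10 kb, as did 61.2% of all genes. Tfap2a has 9 distinct starts, and a gene with more starts covers more sequence. Within 100 kb, the numbers of Tfap2a, Sp9, Sp8 and En1 were reached by 1.495%, 5.91%, 11.05% and 21.2% of genes.

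**Figure D3:**
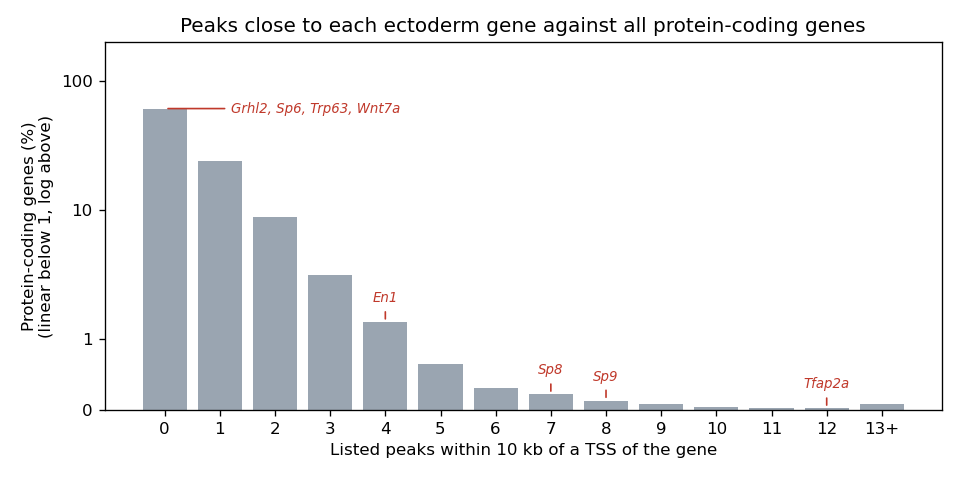
Share of all 21938 protein-coding genes in percent (linear below 1, logarithmic above) by the number of listed peaks within 10 kb of a TSS, with the 8 ectoderm genes marked at their own counts. Grhl2, Sp6, Trp63 and Wnt7a are in the bar at 0, while En1 at 4, Sp8 at 7, Sp9 at 8 and Tfap2a at 12 are in the tail.

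A promoter here is the window from 2 kb before to 1 kb after the TSS of a protein-coding transcript. A listed peak at a promoter was found at 4 of the 8 genes (En1, Sp8, Sp9 and Tfap2a), against 31.2% of all genes, and a called one at the same 4, against 17.4%. Genes with few neighbours were found both among those with many listed peaks and among those with none within 10 kb. Of the 4 genes with at least 5 listed peaks within 100 kb, 3 have at most 1 other protein-coding gene with a start within 100 kb. These are 3 of the 5 ectoderm genes with so few neighbours, and over the 4278 genes with so few neighbours 10.4% have at least 5 listed peaks, against 21.2% of all genes. Tfap2a and Trp63 both have 0 other protein-coding genes with a start within 100 kb, with 13 and 0 listed peaks. En1, Grhl2 and Sp8 have 1 each, with 5, 2 and 7. CpG-rich 5′ ends were found at En1, Sp9, Wnt7a and Grhl2, of which 2 had a promoter peak, and 2 of the 4 genes without one (Sp8 and Tfap2a) also had a promoter peak. At Tfap2a, with a GC content of 61.0%, this split depends on the limit of 0.6 for the CpG ratio. Its ratio of 0.566 lies just under that limit. The ratio of Sp8 (0.587) does too, but its GC content of 44.7% is also below the limit set for GC content. The ratios of Sp6 (0.154) and Trp63 (0.196) lie far below 0.6. Over all genes, 54.4% of those with a CpG-rich 5′ end had a listed promoter peak and 12.6% of the others.

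The 38 peaks resembled the whole list in most features. At a promoter of any protein-coding gene were 18 of them, or 47.4% (Wilson interval 32.5 to 62.7), against 49.2% of all listed peaks. The median peak length was 250 bp in both. CpG-rich sequence around the summit was found in 21 peaks, or 55.3% (39.7 to 69.9), against 44.8%. A GLI match was present in 4 of the 38, or 10.5% (4.17 to 24.1), against 17.9% (17.3 to 18.4), while 2 of the 4 matches (Grhl2 rank 13236 and Sp9 rank 16320) lie outside the listed peak. Matches inside the peaks gave 5.26%, and those within 100 bp of the summit 2.63%. Neither share was computed over all listed peaks, so the 17.9% is not their baseline. The exact consensus was found in 0, against 2.17%, where the Wilson interval reaches 9.18% and the limit of 3 counts is 7.89%. The GC box GGGCGG was, on either strand, in 42.1% of the 38 and in 50.4% of all listed peaks. The homeodomain core TAATTA was in 2.63%, a single peak, the distal one at Tfap2a, against 12.5%. All of the intervals over the 38 that are given here contain the value of the whole list.

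The 8 genes were then set beside 3 other lists. Of 30 further genes of limb ectoderm and ridge, among them Fgf8, Dlx5, Wnt6 and keratins, 26 had a listed peak within 100 kb and 19 a called one. A listed promoter peak was found at 7 of these 30 and a called one at 3. Some of these loci were dense, with 16 listed peaks at Bmp7 and 15 at Dlx2. Fgf8, the main ridge signal, had 2 listed and 1 called within 100 kb. Fgf8 was the closest gene of neither, as the called peak was closest to Mgea5 and the other to Npm3. Krt5, Krt14, Perp and Rspo2 had 0 listed peaks. Of 14 transcription factor genes of limb mesenchyme, all 14 had a listed peak and 13 a called one. A listed promoter peak was found at 13 of these 14 and a called one at 9. Over all protein-coding genes the shares were 71.9%, 53.9%, 31.2% and 17.4% in the same order. The median number of listed peaks per gene was 3.5 for the 8 genes, 2.5 for the 30, 7.5 for the 14 mesenchymal genes and 2 over all protein-coding genes. The 3 HH feedback genes Ptch1, Gli1 and Hhip had a median of 7.

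The highest enrichment near the 8 genes, 3.47 on the log2 scale, was below the highest at HH feedback genes. The strongest peaks of those genes were ranks 2 and 19 at Ptch1, the HH receptor, and rank 7 at Gli1, at log2 fold enrichments of 6.05, 5.04 and 5.76. The strongest peaks of the other ectoderm list were rank 159 near Fgf17 (closest to Dmtn), rank 376 near Esrp1 (closest to Virma) and rank 482, 6055 bp from a start of Bmp7. Those of the mesenchymal list were rank 300 at Prrx1, rank 306 near Prrx2 (closest to Ntmt1) and rank 332, distal to Lmx1b, the mesenchymal target of WNT7A. The highest rank whose closest gene was one of the 8 was 2185, distal to Grhl2. The median log2 fold enrichment was 2.17 near the 8 genes, 2.21 near the other ectoderm genes, 2.26 near mesenchymal genes and 2.53 near HH feedback genes. The share of peaks called was 39.5%, 32.7%, 44.1% and 60% in the same order.

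**Figure D4:**
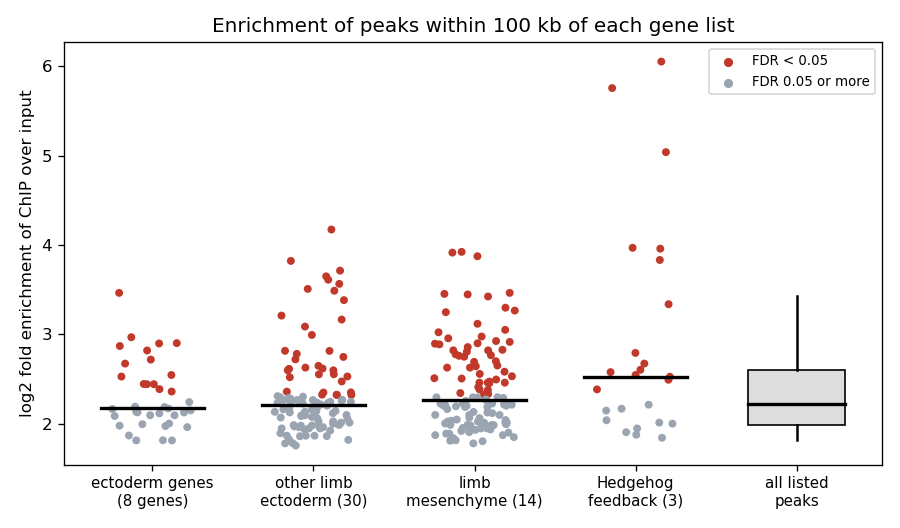
Log2 fold enrichment of ChIP over input for every listed peak within 100 kb of the genes in each list, with 1 point per peak, red for an FDR under 0.05, grey for a higher FDR and a black line at the median. The box covers the 25th to 75th percentile of all listed peaks and its whiskers the 5th to 95th. Peaks near the 8 ectoderm genes reach 3.47, or 2.97 where one of the 8 is the closest gene. Peaks near HH feedback genes reach 6.05.

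A GLI match was found in 10.5% of the peaks near the 8 genes, in 15.5% (9.88 to 23.4) near the other ectoderm genes, in 10.2% (5.91 to 16.9) near mesenchymal genes and in 32% (17.2 to 51.6) near HH feedback genes. CpG-rich sequence was found in 55.3% near the 8 genes and in 55.5% near the other ectoderm genes, against 28.8% near mesenchymal genes and 28% near HH feedback genes. The interval for the mesenchymal list (21.4 to 37.6) did not overlap that of all 38 peaks. It did overlap that of the 35 peaks with one of the 8 genes as closest, at 51.4% (35.6 to 67.0), where the difference was somewhat smaller and over fewer peaks. The share over all listed peaks was 44.8%, and no test of this difference was run.

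**Figure D5:**
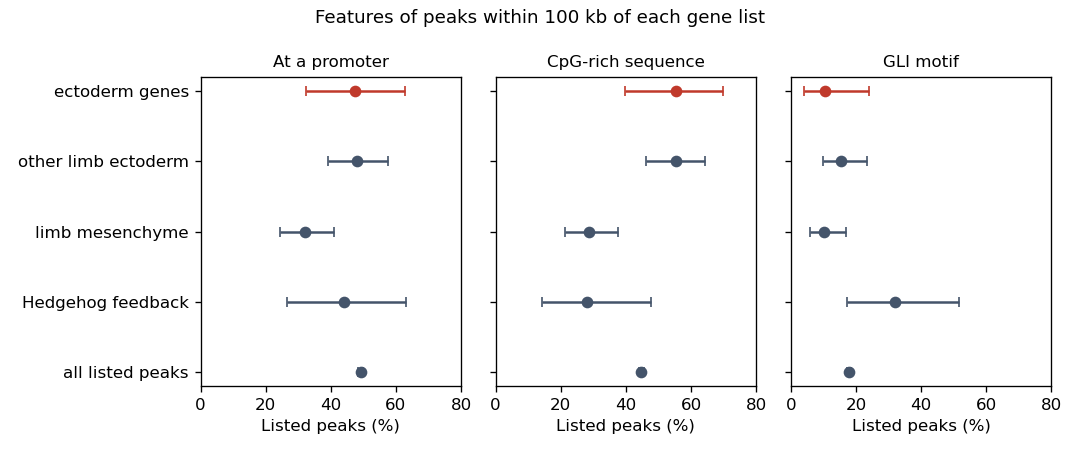
Share of listed peaks in percent that lie at a promoter, in CpG-rich sequence or with a GLI match, for peaks within 100 kb of each gene list and for all listed peaks. Points are shares and bars 95% Wilson intervals over peaks; the ectoderm genes (red) have intervals that contain the value of all listed peaks in each panel.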

How the data were processed

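The submitters' processing notes name Bowtie2 2.2.5 and mm10. Peaks were called with CisGenome, per the study's methods. The methods do not state a joint call, and the list was treated as one over both replicates. The deposited list gives an FDR, a q-value computed by the authors' caller, and the highest log2 fold enrichment over input that the authors computed within each peak. A T statistic, a score without fixed range, was deposited too and sets the authors' ranks, and the −log10 of the Poisson p-value in the deposited list stops at 100. The file ran to an FDR of 1, and 0.05 was used as the threshold. Rank, T, FDR and log2 fold enrichment put the peaks in the same order, so they are not separate evidence, and called and uncalled peaks met at a log2 fold enrichment of 2.31.

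Summits were assigned to TSSs of all GENCODE M21 transcripts of the 8 genes, on GRCm38.p6. Peaks on unplaced sequence (5) were not used where a position was needed. Sequence came from the RefSeq GRCm38.p6 genome. Scripts used pandas 2.3.3, pysam 0.24.0 and scipy 1.17.1, and their distance and motif searches were tested on simulated data with known answers. Shares have Wilson and medians order-statistic intervals at 95%, for counting error. No test was run. Alternatives changed the distance, annotation, FDR, promoter window and motif.

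The 8 genes and the 3 comparison lists were chosen with earlier results of these data known. The genes named were the 8 with all their peaks, the closest gene of a peak where it was another, and in each list the genes with the 3 highest-ranked peaks. Genes named otherwise, as overlapping or neighbouring a peak or as having many or 0 peaks in a list, were picked after their values were seen. The HH feedback list was planned with 1 further gene, which is not reported here, and neither are some sequences.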

Additional observations from a re-analysis of the deposited data

How the results depend on the processing

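Of 44 alternative values for 7 results, 34 stayed within the spread set for each result (1.5 times a count, or the 95% interval of a share or median), 10 moved beyond it and 0 reversed. These spreads are wide: the 34 include 10 called peaks in place of 15 at an FDR under 0.01, and GLI shares of 5.26% over the whole peak and 20% at an FDR under 0.01, against 10.5%. Widening the distance to 200 kb gave 59 listed and 26 called peaks, and lowered the share with one of the 8 genes as closest to 66.1%, from 92.1%. Counting genes of every type lowered that share to 65.8%, as genes that do not code for protein were then closest to 10 peaks at Tfap2a, En1 and Grhl2. With an FDR under 0.01, the promoter share rose to 70% of 10 peaks. At that FDR no share over all listed peaks was computed, for promoters or for GLI matches. The same holds for GLI matches inside peaks or within 100 bp of the summit. With an FDR under 0.05, the promoter share was 53.3% near the 8 genes and 53.6% over all called peaks. The median log2 fold enrichment was 2.67 for an FDR under 0.05 and 2.85 for an FDR under 0.01, which follows from the threshold itself. The GLI share was 3.03% within 50 kb, which leaves out the distal peaks of En1 and Grhl2, 0% for the exact consensus and 2.63% in the 100 bp to either side of the summit. No paired analysis was possible because values per replicate are not in the list, and no replicate could be left out for the same reason. The exact depth is not known here, and a gene without a peak may have binding under the threshold of the list.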
